A study of Mus musculus with 10 samples.

Results

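The 9 genes described here form or anchor the junctions that seal epithelial cell layers, and they were taken from the deposited expression table by symbol as Cdh1, Epcam, Ocln, Tjp1, Cldn3, Cldn4, Cldn7, F11r and Shroom2. They are 9 of 24394 symbols and hold 15 of the 34943 transcript rows that carry a symbol. Lungs of young adult female BALB/c mice were profiled by RNA-seq. Saline mice (n = 3) received saline and served as controls. OVA mice (n = 3) were sensitized by intraperitoneal injection of ovalbumin with alum, challenged intranasally with ovalbumin and given oral vehicle, which makes an acute model of allergic airway inflammation. Herb mice (n = 4) went through the same ovalbumin protocol and received an oral ethanol extract of Descurainia sophia seeds. The labels name no allele or transgene in any group, and the sources do not say that lungs of several animals were pooled. Each library was taken as 1 mouse, and p-values measure only the spread between these libraries.

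Airway and alveolar epithelia close the space between neighbouring cells with tight junctions near the apical surface and adherens junctions beneath them. Claudins and occludin form the strands of the tight junction, junctional adhesion molecules join them at the membrane, and zonula occludens proteins tie both to the actin cytoskeleton, while E-cadherin carries the adhesion of adherens junctions. Impaired epithelial sealing is a known feature of allergic airway disease, and in whole lung the same transcripts come from alveolar, club, ciliated and goblet cells in unknown proportions. In such bulk tissue, fewer cells of a type and less RNA per cell cannot be told apart.

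Promoter sequence is shown for 3 members that differ in the results: Epcam, which is expressed from a single row and whose direction depended on the scaling, Tjp1, which had the largest decrease in OVA mice, and Cldn4, which was close to the detection limit. Each run is the 250 bases before the RefSeq transcript start, 5′ to 3′ on the strand of the gene, in build GRCm38.p6. Capitals mark CACCTG or its other strand CAGGTG, the form of the E-box known as the site of Snail and Zeb repressors of epithelial genes.
Epcam (chr17:87635729-87635978, plus strand): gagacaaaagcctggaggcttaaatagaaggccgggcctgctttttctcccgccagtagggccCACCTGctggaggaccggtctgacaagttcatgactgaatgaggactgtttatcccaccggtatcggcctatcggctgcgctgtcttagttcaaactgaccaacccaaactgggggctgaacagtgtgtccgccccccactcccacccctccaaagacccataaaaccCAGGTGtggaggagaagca
Tjp1 (chr7:65371245-65371494, minus strand): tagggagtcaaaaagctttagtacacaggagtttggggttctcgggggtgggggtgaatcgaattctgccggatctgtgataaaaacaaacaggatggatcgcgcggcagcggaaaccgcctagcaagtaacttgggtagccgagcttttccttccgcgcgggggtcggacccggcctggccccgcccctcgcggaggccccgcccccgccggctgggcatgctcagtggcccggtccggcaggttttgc
Cldn4 (chr5:134946935-134947184, minus strand): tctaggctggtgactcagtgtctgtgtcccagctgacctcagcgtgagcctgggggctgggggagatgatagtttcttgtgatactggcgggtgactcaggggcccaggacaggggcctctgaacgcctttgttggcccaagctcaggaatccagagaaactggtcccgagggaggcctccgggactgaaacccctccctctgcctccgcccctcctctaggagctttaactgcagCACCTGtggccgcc
In Epcam the E-boxes began 187 and 19 bases before the start, in Cldn4 the E-box upstream of the start began 14 bases before it, and the Tjp1 run contained none. The only Tjp1 window matched lies inside the span of that gene (chr7:65296165-65527850). No window was matched at the outer end of the span, so the absence holds for this run only. RefSeq promoter windows of 300 bases (250 before and 50 after a start) were matched for 8 of the 9 members by symbol; Cdh1 is named only. CACCTG on either strand was found in 7 of 13 windows of members, which belong to 6 of 8 genes, and in 20.2% of all 32851 windows. GGGCGG on either strand, the GC box known to bind Sp1, was found in 9 of 13 windows of members and in 35.7% of all windows. Windows of a gene can overlap, and a match is a description of letters and not of binding.

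Values are FPKM, fragments scaled by transcript length and by the mapped fragments of a library, so levels can be compared between genes on a per-length scale. The depth, estimated from the value that a single fragment takes in the table, ranged from about 14700000 to 29500000 mapped fragments. Fragments on protein-coding RefSeq transcripts of known length made up 32.95% to 33.31% of each Saline library, 11.91% to 14.89% of each OVA library and 19.34% to 25.79% of each Herb library. The ribosomal RNA precursor Rn45s ran in the opposite order, at 1201 to 1386 FPKM in Saline, 10014 to 13531 in OVA and 3230 to 7019 in Herb. The median of all 11205 gene sums tested, a gene sum being the total of the RefSeq rows of a symbol, was -0.75 in OVA vs. Saline, 0.48 in Herb vs. OVA and -0.27 in Herb vs. Saline on the log2(FPKM + 1) scale. Differences are given as deposited and after each library was rescaled to a common 75th percentile, taken in each fit over the features tested. On gene sums this brought the medians to 0.07, 0.01 and 0.09. In the fits, rescaled locus sums used the percentile of locus sums, and rescaled rows that of rows. With each library scaled to a common protein-coding sum, the medians of all gene sums were 0.35, -0.12 and 0.23. A call is an adjusted p under 0.05 in limma with Benjamini-Hochberg adjustment over all features tested.

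Ranked by their mean over all libraries, the gene sums ran from Tjp1 (19.4 FPKM) and Cldn3 (16.9) through Cdh1 (13.1), Epcam (9.35), Cldn7 (7.40), Shroom2 (5.13), Ocln (3.004) and F11r (2.04) down to Cldn4 (0.541). Tjp1 led in Saline (mean 40.1), Cldn3 in OVA (10.1) and the RefSeq row of Cdh1 in Herb (20.4). Over the 10 libraries the ranges of any neighbours in the order overlapped. This order holds for RefSeq rows only. With the adjoining assembled rows described below added, Tjp1 led in Saline (mean 77.8 FPKM), OVA (20.7) and Herb (43.6). Over all libraries the mean was then 23.9 FPKM for Cdh1 and 13.4 for F11r, which put F11r above Epcam. Cldn4 alone among the gene sums fell short of the mean of 1 FPKM required for testing, so 8 gene sums and 10 of the 15 rows were tested. The row NM_001290686 of Shroom2 was listed at 0 in every library, and NM_001193619 of Cldn7 (0 to 0.821 FPKM), NM_001290687 of Shroom2 (0.052 to 0.253), NM_001290684 of Shroom2 (0 to 2.98) and the single row of Cldn4 were the others below that mean.

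**Figure D1:**
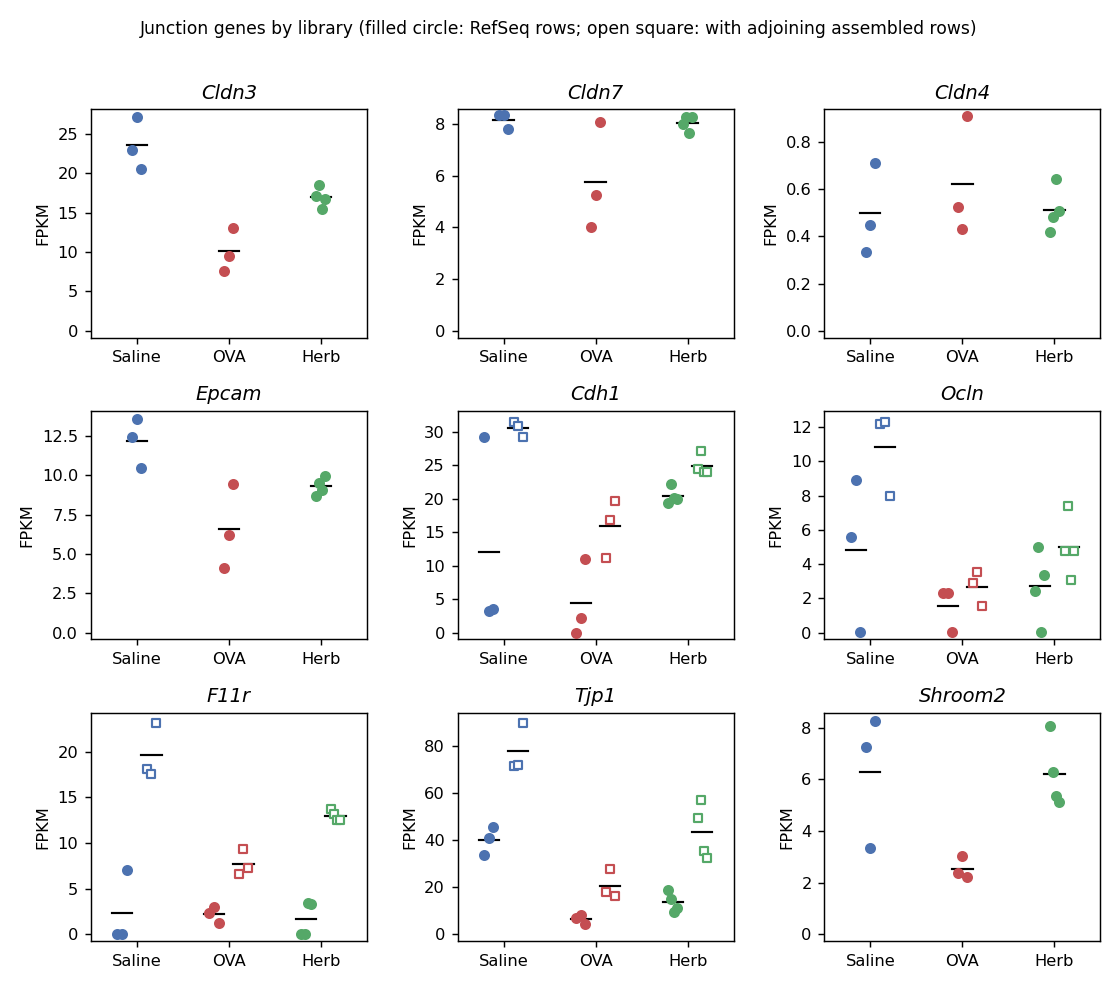
Level of each of the 9 genes (y axis, FPKM) in Saline (n = 3), OVA (n = 3) and Herb (n = 4) libraries, with 1 point per mouse and a horizontal line at the group mean. Filled circles are the RefSeq rows of a symbol; for Cdh1, Ocln, F11r and Tjp1 open squares add assembled rows that adjoin them in the table, and in the Saline libraries of Cdh1 the squares lie at 29.3 to 31.6 FPKM where the circles lie at 3.28 to 29.2.

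Among the strand proteins of the 9 genes, Cldn3, a claudin that tightens the barrier (GRCm38.p6, chr5:134986214-134987476), was the most abundant. Cldn3 stood at 22.9, 27.1 and 20.5 FPKM in Saline, at 7.62, 9.54 and 13.1 in OVA and at 17.2, 18.5, 15.4 and 16.8 in Herb. None of the 3 groups overlapped another, with OVA lowest and Herb between OVA and Saline. The log2 difference of Cldn3 in OVA vs. Saline was -1.17 ± 0.19 (± SE throughout) as deposited, with a limma adjusted p of 0.0007, but after rescaling to the 75th percentile the value was -0.08 ± 0.17 (adjusted p = 0.726), and quantile normalization and scaling to the protein-coding sum turned it to 0.29 and 0.28. With the protein-coding sum the median of all gene sums was 0.35. The Herb vs. OVA difference was 0.72 ± 0.18 as deposited (adjusted p = 0.0129), against 0.09 ± 0.16 after rescaling and -0.07 and -0.08 under those other scalings.

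Cldn7, a claudin also found along the lateral membrane (chr11:69964779-69967886), differed less. It was at 8.35, 8.35 and 7.79 FPKM in Saline, 4.01, 5.24 and 8.07 in OVA, and 8.02, 8.26, 7.66 and 8.26 in Herb. OVA replicate 3 lay within the range of Saline and Herb, while the other two OVA libraries were below both. The difference in OVA vs. Saline was -0.48 ± 0.19 as deposited (adjusted p = 0.0542), became -0.71 (adjusted p = 0.00226) without OVA replicate 3 and was 0.53 ± 0.18 (adjusted p = 0.0459) after rescaling. In Herb vs. OVA it was 0.46 ± 0.18 (adjusted p = 0.0623), and 0.69 (adjusted p = 0.017) without OVA replicate 3. Herb and Saline differed by -0.02 ± 0.18, with a 95% confidence interval of -0.42 to 0.39. Nearly all of the level, 98.5% of its mean, came from NM_016887.

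Cldn4, a barrier-forming claudin known to rise after alveolar injury, is a neighbour of Cldn3 on chromosome 5 (chr5:134945123-134946934). It was at 0.333, 0.450 and 0.713 FPKM in Saline, 0.525, 0.429 and 0.909 in OVA, and 0.421, 0.484, 0.643 and 0.507 in Herb. The 3 groups overlapped throughout, and the highest and lowest values were both under 1 FPKM. For a transcript of 1 kb, 3 fragments correspond to 0.102 to 0.203 FPKM at these depths, so Cldn4 was above the level of single fragments but was counted on few of them.

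Ocln, occludin (chr13:100496504-100552718), had RefSeq row levels of 5.61, 8.92 and 0.0203 FPKM for Saline, 2.33, 2.30 and 0.0290 for OVA and 2.45, 4.99, 0.0480 and 3.35 for Herb. One library of each group was thus near 0 while its fellows were not. The differences were -0.86 ± 0.93 in OVA vs. Saline (adjusted p = 0.446) and 0.47 ± 0.87 in Herb vs. OVA (adjusted p = 0.678), and neither was larger than the spread between libraries.

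F11r, junctional adhesion molecule A (chr1:171437561-171464593), showed the same kind of scatter on its RefSeq row. The Saline libraries were listed at 0, 0 and 7.06 FPKM, the OVA libraries stood at 2.32, 3.03 and 1.24, and the Herb libraries were listed at 0, 0, 3.41 and 3.35. Zeros stood beside the highest value within Saline. The difference in OVA vs. Saline was 0.63 ± 0.90 (adjusted p = 0.566) and that in Herb vs. OVA was -0.57 ± 0.84 (adjusted p = 0.603).

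Cdh1, E-cadherin (chr8:106603350-106670247), had 29.2, 3.28 and 3.56 FPKM on its RefSeq row for Saline, was listed at 0 in OVA replicate 1 with 2.14 and 11.04 in the other OVA libraries, and had 19.4, 22.2, 20.1 and 19.9 for Herb. The Herb libraries lay close together, whereas Saline spanned 3.28 to 29.2 FPKM. OVA vs. Saline gave -1.32 ± 0.93 (adjusted p = 0.242), and -2.24 (adjusted p = 0.0455) without OVA replicate 3. The value in Herb vs. OVA was 2.67 ± 0.87 (adjusted p = 0.0335), and this call was lost when any single OVA or Herb library other than OVA replicate 3 was left out, with 1.80 (adjusted p = 0.125) without OVA replicate 1 as the lowest.

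The rows that adjoin Cdh1, Ocln, F11r and Tjp1 in the table bear on these values. The authors' table contains 31605 rows of transcript models assembled from the reads with no symbol, and in file order 11 of them, from 4 assembled loci, adjoin these 4 members. The table pairs none of the 11 with a gene and gives no coordinates for them; summing them with the RefSeq rows was chosen after seeing the data, and such totals are called locus sums here. The sum for Cdh1 was 31.6, 31.0 and 29.3 FPKM in Saline, 11.1, 16.8 and 19.7 in OVA, and 24.5, 27.2, 24.03 and 23.99 in Herb. The 3 groups no longer overlapped, and the coefficient of variation in Saline was 3.85% against 124% on the RefSeq row. In Saline replicate 1 the RefSeq row held 92.6% of the Cdh1 locus sum, in Saline replicates 2 and 3 it held 10.6% and 12.2%, and in Herb it held 79.1% to 83.8%. The high level of the RefSeq row in Herb thus went with a larger share on that row as well as with a higher total than in OVA.

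For F11r the locus sums were 18.1, 17.6 and 23.1 FPKM in Saline, 6.58, 9.32 and 7.30 in OVA and 13.7, 13.2, 12.5 and 12.5 in Herb. Every Saline library exceeded every Herb library, and every Herb library exceeded every OVA library, although the RefSeq row held 0% in 4 of the 10 libraries. The Ocln sums were 12.2, 12.3 and 7.998 in Saline, 2.90, 3.55 and 1.53 in OVA and 4.79, 7.38, 3.08 and 4.76 in Herb. Saline stayed above both other groups, and Herb and OVA overlapped. In the libraries where the Ocln row was near 0, it held 0.254% (Saline replicate 3), 1.91% (OVA replicate 3) and 1.56% (Herb replicate 3) of the sum.

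**Figure D2:**
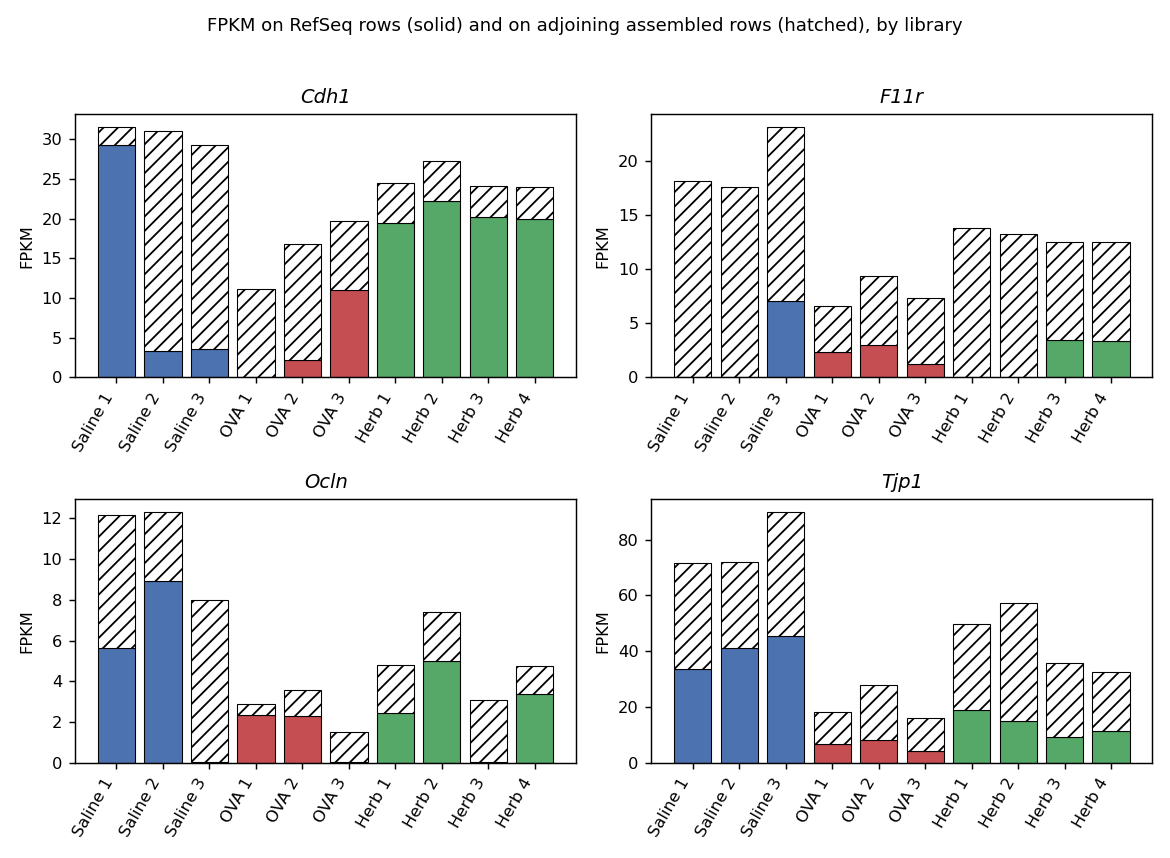
Level on the RefSeq rows (solid bars, coloured by group) and on the adjoining assembled rows (hatched, stacked on top) of Cdh1, F11r, Ocln and Tjp1 in each of the 10 libraries (x axis), in FPKM (y axis). For Cdh1 the solid part makes up 92.6% of the bar in Saline replicate 1 and 10.6% in Saline replicate 2, while the bars reach 31.6 and 31.0 FPKM.

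Tjp1, the scaffold zonula occludens 1 (chr7:65296165-65527850), had the largest difference among the members in OVA vs. Saline. Its 2 RefSeq rows summed to 33.8, 41.0 and 45.5 FPKM in Saline, 6.80, 8.06 and 4.25 in OVA, and 18.9, 15.0, 9.32 and 11.2 in Herb. No group overlapped another. Tjp1 fell in OVA vs. Saline by 2.51 ± 0.28 as deposited (adjusted p = 0.0002), stayed lower after rescaling to the 75th percentile, at -1.43 ± 0.25 (adjusted p = 0.0028), and was also lower and called with quantile normalization (-1.06) and with the protein-coding sum (-1.07). In Herb vs. OVA it rose by 0.98 ± 0.26 (adjusted p = 0.0172), which became 0.37 ± 0.23 (adjusted p = 0.338) after rescaling and 0.75 (adjusted p = 0.057) without OVA replicate 3. Herb remained below Saline, at -1.53 ± 0.26 (adjusted p = 0.0095), and the rescaled value was -1.06 ± 0.23 (adjusted p = 0.0234).

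The row NM_001163574 supplied 67.1% of the mean of Tjp1 and NM_009386 the rest. NM_001163574 was at 20.0, 26.5 and 33.1 FPKM in Saline, 4.799, 3.57 and 3.74 in OVA and 12.3, 13.0, 5.66 and 7.36 in Herb. NM_009386 was at 13.8, 14.5 and 12.4 in Saline, 1.996, 4.49 and 0.506 in OVA and 6.61, 2.01, 3.66 and 3.82 in Herb. Both rows were lower in every OVA than in every Saline library, and both were called lower in OVA vs. Saline as deposited and after rescaling (-1.61 for each). Only the former row was called higher in Herb vs. OVA (1.01, adjusted p = 0.0292, against 0.71, adjusted p = 0.222), and the difference between the rows was not tested.

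With the 6 adjoining assembled rows, Tjp1 reached 71.6, 71.9 and 89.95 FPKM in Saline, 18.2, 27.8 and 16.1 in OVA and 49.6, 57.1, 35.6 and 32.3 in Herb. The order of the groups was unchanged and they did not overlap, yet the decrease in OVA vs. Saline was smaller than on the RefSeq rows, at -1.89 ± 0.26 as deposited (adjusted p = 0.0002) and -0.84 ± 0.20 (adjusted p = 0.0089) after rescaling. With the protein-coding sum it was -0.39 ± 0.23 and was no longer called (adjusted p = 0.184).

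Epcam, an adhesion molecule of nearly all simple epithelia that binds claudins (chr17:87635979-87651127), has a single row with no adjoining assembled row. It was at 12.4, 13.6 and 10.497 FPKM in Saline, 4.13, 6.19 and 9.45 in OVA and 8.66, 9.53, 9.07 and 9.97 in Herb. Every Saline library was above the OVA and Herb libraries, and OVA replicate 3 lay within the Herb range. As deposited Epcam fell in OVA vs. Saline by 0.85 ± 0.23 (adjusted p = 0.0104), but its direction flipped under all 3 scalings, to 0.19, 0.31 and 0.53, the last with an adjusted p of 0.0489, and was -0.02 when the percentile was taken over single rows. The value of 0.53 was with the protein-coding sum, where the median of all gene sums was 0.35 and 4239 of 11205 were called higher. The difference of 0.50 ± 0.22 in Herb vs. OVA was not called (adjusted p = 0.0861), and without OVA replicate 3 it was 0.76 (adjusted p = 0.018).

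Shroom2, an actin-binding regulator of apical myosin and cell shape (chrX:152609509-152770788), is a candidate gene that the study chose on these same samples, so its directions here are not independent evidence. Its 5 rows summed to 7.26, 3.33 and 8.28 FPKM in Saline, 2.38, 3.02 and 2.22 in OVA, and 8.08, 6.28, 5.35 and 5.13 in Herb. All OVA libraries were below all others, and Herb overlapped Saline. As deposited the Shroom2 difference in OVA vs. Saline was -0.97 ± 0.28 (adjusted p = 0.0132), a call lost without Saline replicate 3 (-0.76, adjusted p = 0.0514), while the value was -0.06 ± 0.25 after rescaling and 0.24 with the protein-coding sum (median of all gene sums 0.35). In Herb vs. OVA it was higher by 1.02 ± 0.26 (adjusted p = 0.0143) as deposited and by 0.49 ± 0.23 (adjusted p = 0.217) after rescaling.

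Of the Shroom2 rows, NM_172441 held 64.8% of the mean and was at 4.02, 1.77 and 6.17 FPKM in Saline, 2.19, 2.97 and 2.02 in OVA and 3.07, 5.61, 3.61 and 1.85 in Herb, and its groups overlapped in every comparison. NM_001290685 was at 0.163, 1.01 and 0.189 in Saline, 0.140, 0 and 0.126 in OVA and 4.86, 0.402, 0.535 and 3.08 in Herb, so that OVA was below both other groups and Herb replicates 1 and 4 carried most of the Herb level. NM_001290684 was at 2.98, 0.458 and 1.82 in Saline, had the listed value 0 for every OVA mouse and stood at 0, 0.0174, 1.06 and 0.0984 in Herb. NM_001290687 was low throughout, at 0.0903 to 0.101 in Saline, 0.0523 to 0.0704 in OVA and 0.1003 to 0.253 in Herb, with OVA again below both. The means of these 4 rows were all lower in OVA than in Saline and higher in Herb than in OVA, and differences between rows were not tested. With the pseudocount of 1 and the minimum mean, neither row tested (NM_172441 and NM_001290685) was called in any comparison as deposited, with adjusted p from 0.0771 to 0.893. With a pseudocount of 0.1, NM_001290685 was called higher in Herb vs. OVA (3.09, adjusted p = 0.0396), and with no minimum mean NM_001290684 was called lower in OVA vs. Saline (-1.35, adjusted p = 0.0336).

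Counted over the 8 gene sums, 4 members were called lower in OVA vs. Saline as deposited (Tjp1, Cldn3, Shroom2 and Epcam) and none higher, where 57.9% of all gene sums tested were called lower and 3.28% higher. The median of the members was -0.92 against -0.75 over all gene sums. The groups of these 4 members did not overlap either, as in 63.0% of all gene sums with OVA lower and 4.68% with OVA higher. After rescaling, Tjp1 was called lower and Cldn7 higher, against backgrounds of 17.2% and 24.1%, and the median of the members was -0.07 against 0.07. On single rows, 4 of 10 were called lower (both rows of Tjp1, Cldn3 and Epcam), with a background of 41.1% lower and 3.02% higher. After rescaling the 2 rows of Tjp1 were called lower, beside 13.4% lower and 11.8% higher over all rows. A share of members near these backgrounds is not a result about junction genes.

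Locus sums put all 8 members lower in OVA vs. Saline as deposited, with a background of 61.7% called lower and 4.03% higher, and their groups did not overlap for Cdh1, Ocln, Tjp1, F11r, Epcam, Cldn3 and Shroom2, as in 65.3% of all locus sums with OVA lower and 5.10% with OVA higher. Without 1 library the number was 7 or 8, and wherever it was 7 the gene lost was Cldn7, whose adjusted p was 0.0453 with all libraries. For Cdh1 the locus value was -0.94 ± 0.19 (adjusted p = 0.0016), for F11r -1.24 ± 0.15 (adjusted p = 0.0001) and for Ocln -1.71 ± 0.29 (adjusted p = 0.0007). After rescaling, 2 members were called lower (Tjp1 and Ocln) and none higher, against a background of 20.1% lower and 26.5% higher. The percentile was here that of locus sums. Cldn7, which has no added row, was at 0.46 with it (limma adjusted p = 0.0636) and at 0.53 with that of gene sums. The rescaled Ocln value was -0.83 ± 0.27 (adjusted p = 0.0319), Cdh1 was at 0.10 ± 0.15 and F11r at -0.24 ± 0.12. Scaled to the protein-coding sum, the locus sums of Cdh1 (0.54), Cldn7 (0.86) and Epcam (0.53) were called higher and none was called lower, beside 44.7% of all locus sums called higher and 8.72% lower, so that Tjp1 and Ocln were lower as deposited and under both scalings run on locus sums, but were not called under this one.

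The comparison of Herb with OVA asks which members differed under the extract. As deposited 4 of 8 gene sums were called higher (Cdh1, Cldn3, Shroom2 and Tjp1) and none lower, beside 44.0% higher and 0.446% lower over all gene sums. The median of the members was 0.61 against 0.48. The groups of these 4 did not overlap, as in 49.6% of all gene sums with Herb higher and 0.651% with Herb lower. On single rows 3 of 10 were called higher (Cdh1, Cldn3 and NM_001163574 of Tjp1), with a background of 31.7% higher and 0.672% lower, and none was called without OVA replicate 1, Herb replicate 1 or Herb replicate 2. In those fits calls over all rows fell too, from 9786 with all libraries to 216, 5012 and 5251. With locus sums, 5 members were called higher (Cdh1, Cldn3, F11r, Shroom2 and Tjp1) beside 51.5% of all called higher and 0.391% lower, and these 5 kept their call without any single library. Ocln was called too without OVA replicate 2 or Herb replicate 3, and Cldn7 and Epcam without OVA replicate 3. The groups of the 5 called with all libraries did not overlap, as in 54.2% of all locus sums with Herb higher and 0.535% with Herb lower. The Cdh1 value was 0.65 ± 0.17 (adjusted p = 0.0135) on the locus sum, where the RefSeq row had given 2.67.

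After rescaling, none of the 8 gene sums and none of the 8 locus sums was called in Herb vs. OVA, where over all gene sums 0.348% were called higher and 0.455% lower, and over all locus sums 0.391% higher and 0.611% lower. No member row was called either, beside 0.242% higher and 0.315% lower. At an unadjusted p under 0.05, 1 gene sum and 0 locus sums of members passed in those fits, beside 3007 of all 11205 gene sums and 3502 of all 11775 locus sums. The largest rescaled locus values were 0.51 ± 0.23 for Shroom2 (95% confidence interval -0.01 to 1.02) and 0.40 ± 0.19 for Tjp1 (-0.02 to 0.83). For Cdh1 the interval was -0.30 to 0.34, for Epcam it was -0.55 to 0.39, and for Cldn7 it was -0.50 to 0.27.

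**Figure D3:**
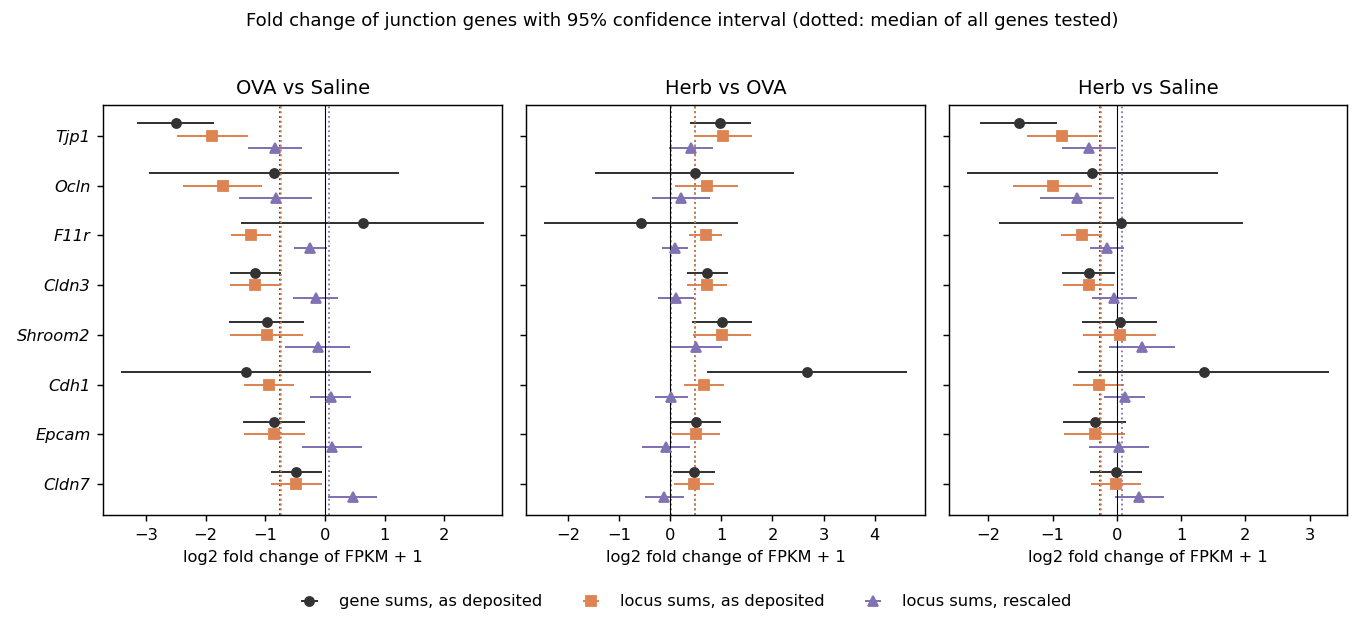
Log2 fold change of FPKM + 1 (x axis) with its 95% confidence interval for the 8 members tested (y axis) in OVA vs. Saline, Herb vs. OVA and Herb vs. Saline. Circles are gene sums and squares are locus sums as deposited, triangles are locus sums rescaled to a common 75th percentile, and dotted lines are the medians of all genes tested in the same fit; in OVA vs. Saline the triangles of Tjp1 (-0.84) and Ocln (-0.83) lie farthest below their dotted line.

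In Herb vs. Saline, the comparison of what still differed from controls, 1 of 8 gene sums (Tjp1) was called lower as deposited and none higher, beside 22.7% lower and 3.32% higher over all gene sums. After rescaling Tjp1 was again the 1 member called, beside 5.11% lower and 10.6% higher. The groups did not overlap for Tjp1, Cldn3 and Epcam, as in 36.6% of all gene sums with Herb lower and 6.94% with Herb higher. Of single rows, both of Tjp1 were called lower, with a background of 6.26% lower and 1.83% higher. This count of 2 became 0 without any single Saline library, without Herb replicate 3 or without Herb replicate 4. In those fits calls over all rows fell too, from 2443 with all libraries to between 207 and 653. Locus sums gave 3 members lower (Ocln -1.003 ± 0.28, Tjp1 -0.85 ± 0.25 and F11r -0.55 ± 0.14) beside 24.7% of all called lower and 4.26% higher. The number was 0 without Herb replicate 3 or without Herb replicate 4, 1 without any single Saline library, 2 without Herb replicate 1, and 4, with Cldn3 added, without OVA replicate 1 or OVA replicate 3. Calls over all locus sums, 3415 with all libraries, were 1966 and 2016 without Herb replicates 3 and 4. They were 1344 to 1896 without a Saline library. The groups of locus sums did not overlap, with Herb lower, for Cdh1, Ocln, Tjp1, F11r, Epcam and Cldn3, as in 37.1% of all, while Herb was higher in 7.88%. Rescaled single rows gave 1 call (NM_001163574 of Tjp1), beside 2.65% lower and 2.90% higher. Rescaled locus sums gave none at an adjusted p under 0.05, where 6.98% of all were called lower and 12.8% higher. At an unadjusted p under 0.05, 2 of 8 members passed in that fit, beside 4282 of all 11775 locus sums. The comparisons share libraries, OVA and Saline each entering a pair of them, so their values are not independent of each other.

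Ratios between members within a library depend little on how that library was scaled where both levels are well above the pseudocount of 1. Epcam was used as the denominator because its level comes from 1 row, a choice added after seeing the data, and the ratios are log2 of (FPKM + 1) over (FPKM + 1) on locus sums, without a test. How many of all genes separate between groups in such a ratio was not computed, so a separation below is a description only. The Cdh1 to Epcam ratio was 1.13 to 1.40 in Saline, 0.99 to 1.31 in OVA and 1.19 to 1.42 in Herb. These ranges overlapped throughout, and the group means spanned only 1.18 to 1.33. For Tjp1 the ratio was 2.32 to 2.98 in Saline, 0.71 to 2.004 in OVA and 1.60 to 2.46 in Herb. Every OVA library was thus below every Saline library, and Herb overlapped both. Over the Cdh1 locus sum, Tjp1 was at 1.16 to 1.59 in Saline, -0.28 to 0.69 in OVA and 0.42 to 1.04 in Herb, so that with this denominator Herb too was below Saline without overlap. The Ocln to Epcam ratio was at -0.35 to -0.03 in Saline, -2.05 to -0.40 in OVA and -1.30 to -0.33 in Herb, with OVA below Saline. Over the Cdh1 locus sum Ocln overlapped between Saline (-1.75 to -1.26) and OVA (-3.04 to -1.64).

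The claudins went different ways relative to Epcam. The Cldn3 ratio was 0.83 to 0.94 in Saline, 0.43 to 0.75 in OVA and 0.70 to 0.91 in Herb, with OVA below Saline. Cldn7 ran the other way, at -0.64 to -0.39 in Saline, -0.20 to -0.03 in OVA and -0.25 to -0.10 in Herb, so that both ovalbumin groups were above Saline. For Cldn4 the ratio was -3.33 to -2.75 in Saline, -2.45 to -1.75 in OVA and -2.86 to -2.62 in Herb. On this scale OVA was above both other groups, but Cldn4 lies below the pseudocount, so this ratio mostly follows the level of Epcam, and the Cldn4 level itself overlapped in all groups. F11r (0.35 to 1.07, -0.33 to 0.56 and 0.30 to 0.61 in Saline, OVA and Herb) and Shroom2 (-1.76 to -0.31, -1.70 to -0.60 and -0.84 to -0.09) overlapped between all groups.

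With the planned denominator, the RefSeq row of Cdh1, the ratios followed the scatter of that row, and the Tjp1 ratio spanned 0.20 to 3.35 among Saline libraries, -1.20 to 2.96 among OVA libraries and -1.03 to -0.03 among Herb libraries. Across the 10 libraries, locus sums of Cdh1 and Epcam, rescaled here by the percentile of gene sums, correlated with r = 0.90, Cdh1 and Cldn7 with r = 0.87 and Epcam and Cldn3 with r = 0.82. Tjp1 and Ocln correlated with r = 0.71, whereas Ocln and Cldn7 had r = -0.88 and Tjp1 and Cldn7 r = -0.86. These values describe 28 pairs over 10 libraries that share the group differences and the scaling of each library, and 11 of the 28 were positive.

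**Figure D4:**
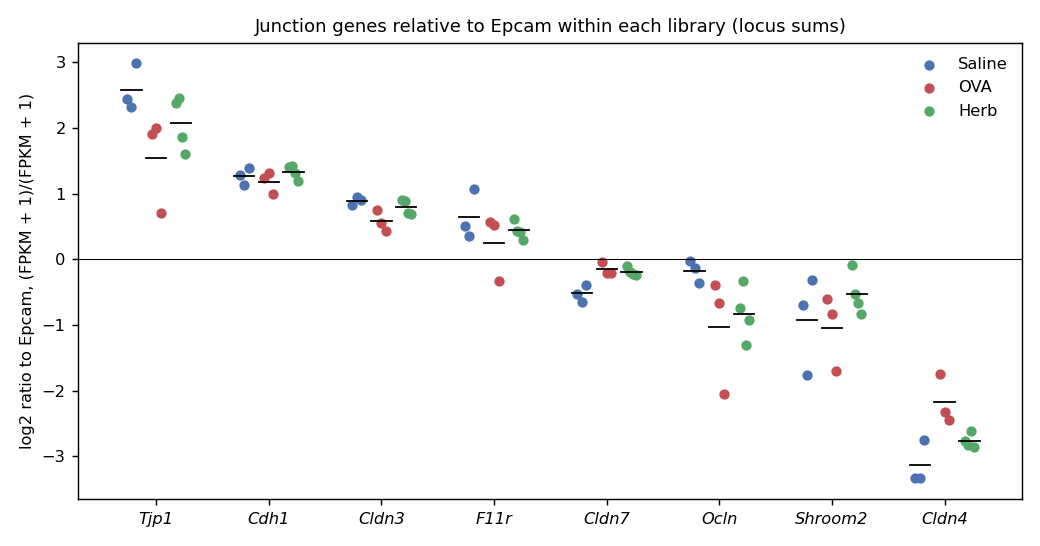
Log2 ratio of each member to Epcam within a library (y axis, locus sums in FPKM + 1) for Saline (n = 3), OVA (n = 3) and Herb (n = 4), with 1 point per library and a line at the group mean. Cdh1 stays within 0.99 to 1.42 in all libraries, while OVA lies below Saline for Tjp1, Ocln and Cldn3 and above it for Cldn7 and Cldn4. Cldn4 lies below the pseudocount, so its ratio mostly follows Epcam, and Ocln overlapped when taken over the Cdh1 locus sum. The share of all genes that separate in this ratio was not computed.

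Further genes of the junction were taken from 6 lists with 74 genes, of which 62 could be tested as gene sums. As deposited 38 were called lower and 1 higher in OVA vs. Saline, beside 57.9% lower and 3.28% higher over all gene sums, with a median of -0.84 against -0.75 over all gene sums. After rescaling 11 were called lower and 14 higher, beside 17.2% and 24.1%, with a median of 0.09 against 0.07. In Herb vs. OVA 20 were called higher and 0 lower as deposited, beside 44.0% higher and 0.446% lower (median 0.46 against 0.48), and 0 were called after rescaling. In Herb vs. Saline 18 were called lower and 0 higher, beside 22.7% and 3.32%, and 2 and 2 after rescaling, beside 5.11% and 10.6%. The same shares of OVA vs. Saline are the background of each list below. The 3 genes with the highest mean are named from each list, whatever their change.

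Among other strand and adhesion genes, of which 12 of 14 were called lower in OVA vs. Saline as deposited and 3 lower and 2 higher after rescaling (beside 57.9% lower, and 17.2% lower and 24.1% higher, over all gene sums), Cldn18, the main claudin of alveolar cells, had 71.2 to 96.1 FPKM in Saline, 3.08 to 18.6 in OVA and 18.5 to 50.8 in Herb. The difference in OVA vs. Saline was -3.12 ± 0.56 as deposited (adjusted p = 0.00112) and -2.03 ± 0.53 (adjusted p = 0.0146) after rescaling. Cxadr, an adhesion molecule of tight junctions, was at 18.4 to 20.5, 5.84 to 9.82 and 13.0 to 15.2 FPKM in the 3 groups, and its rescaled value was -0.09 ± 0.14. Pvrl2, a nectin of adherens junctions, was at 9.30 to 9.96, 5.75 to 6.72 and 7.602 to 10.01, and its value of -0.56 ± 0.12 as deposited turned to 0.47 ± 0.09 (adjusted p = 0.00322) after rescaling.

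Of 15 plaque and scaffold genes, 7 were called lower in OVA vs. Saline as deposited, and 3 lower and 3 higher after rescaling. Ctnnb1, the catenin that binds E-cadherin and also carries Wnt signals, was at 113 to 118 FPKM in Saline, 27.5 to 43.4 in OVA and 58.3 to 77.2 in Herb. Ctnna1, which links that complex to actin, was at 78.2 to 80.7, 12.8 to 18.4 and 17.7 to 43.9 FPKM. Both were lower in OVA vs. Saline after rescaling, Ctnnb1 at -0.49 ± 0.13 (adjusted p = 0.0177) and Ctnna1 at -1.10 ± 0.26 (adjusted p = 0.00922). Ctnnd1, the catenin that stabilizes cadherin at the membrane, spread from 6.14 to 36.7 FPKM within Saline and was not called.

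Polarity genes set the border between apical and lateral membrane, and of 11 tested 5 were called lower and 1 higher in OVA vs. Saline as deposited, and 4 lower and 3 higher after rescaling. Prkci (atypical protein kinase C) was at 21.96 to 23.4 FPKM in Saline, 4.12 to 7.62 in OVA and 9.22 to 13.8 in Herb. Mpp5 (the scaffold Pals1) was at 17.2 to 20.5, 1.91 to 4.44 and 6.96 to 12.3 FPKM, and Pard6b at 11.7 to 13.3, 1.69 to 3.16 and 4.58 to 8.13. All 3 were lower in OVA vs. Saline after rescaling, at -0.73, -1.34 and -1.13 with adjusted p of 0.0129, 0.00217 and 0.00592. As deposited each was higher in Herb vs. OVA, and none was called there after rescaling.

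Desmosomes, the spot junctions that hold keratin filaments, had 6 of 8 genes called lower in OVA vs. Saline as deposited, and 1 lower and 2 higher after rescaling. Ppl (periplakin) was at 11.9 to 14.2 FPKM in Saline and 2.95 to 6.56 in OVA, Pkp2 (plakophilin 2) at 8.20 to 10.2 and 3.46 to 3.72, and Perp at 6.20 to 11.7 and 1.44 to 4.09, with rescaled values of -0.18, -0.14 and -0.40, none of them called. In the list of the Shroom family and apical actomyosin, 6 of 6 were called lower as deposited, and 0 lower and 1 higher after rescaling. Myh9, a motor of the apical actin ring, was at 61.65 to 96.05 FPKM in Saline and 32.7 to 45.5 in OVA, with a rescaled value of 0.08. Ezr, which ties actin to the apical membrane, had a rescaled value of 0.09 and Myh10, a related myosin, of -0.47, neither of them called.

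Regulators of epithelial transcription and splicing showed 2 of 8 called lower in OVA vs. Saline as deposited, and 0 lower and 3 higher after rescaling. Esrp2, a splicing factor of epithelial cells, was at 5.89 to 6.04 FPKM in Saline, 5.45 to 6.77 in OVA and 4.22 to 6.47 in Herb, a difference of -0.01 ± 0.15 as deposited and 0.99 ± 0.17 (adjusted p = 0.00288) after rescaling. Elf3 was at 3.96 to 5.62 FPKM in Saline and 4.97 to 11.3 in OVA, and Ehf at 4.71 to 7.16 and 1.99 to 4.79; both encode ETS factors of epithelia, and the rescaled values were 1.45 (adjusted p = 0.0112) and 0.23.

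Markers of several lung cell types differed between the groups, and their part in the results was not tested. The counts of markers called stand beside shares over all gene sums in OVA vs. Saline. These were 57.9% lower and 3.28% higher as deposited, and 17.2% lower and 24.1% higher after rescaling. A share near these is not a result about a cell type. All marker genes listed were present in the table and none was at 0 in every library. The alveolar type 1 markers, which include the study's candidate Hopx, summed to 531 to 644.5 FPKM in Saline, 42.2 to 139.5 in OVA and 138 to 311 in Herb, with 4 of 4 called lower in OVA vs. Saline as deposited and 3 after rescaling. The alveolar type 2 markers summed to 3334 to 4370, 467 to 811 and 1079 to 1971 FPKM, with 5 of 6 called lower and 4 after rescaling. General epithelial keratins were called lower in 4 of 4 genes as deposited and in 1 after rescaling, with sums of 108 to 138, 30.0 to 56.5 and 45.4 to 69.2 FPKM. Club cell markers ran from 13260 to 23480 in Saline, 2697 to 5516 in OVA and 8018 to 12380 in Herb, with 3 of 4 called lower as deposited and 1 after rescaling.

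Ciliated cell markers summed to 71.7 to 79.5 FPKM in Saline, 34.0 to 81.0 in OVA and 55.4 to 67.6 in Herb. OVA overlapped both other groups, and Herb lay below Saline. Of 5 ciliated markers, 1 was called lower and 1 higher in OVA vs. Saline as deposited and 1 higher after rescaling. The shares over all gene sums given above hold for the lists here too. Goblet cell markers were at 0.328 to 2.98 FPKM in Saline, 18.4 to 855 in OVA and 39.9 to 649 in Herb, and 1 of 5 was called higher in OVA vs. Saline as deposited and 2 after rescaling. Endothelial markers, from cells that also carry Tjp1 and F11r, summed to 327 to 397, 61.4 to 101 and 128 to 283 FPKM, with 4 of 6 called lower as deposited and 3 after rescaling. The mesenchymal (194.5 to 291, 104 to 160 and 191 to 326), leukocyte (31.4 to 45.6, 17.2 to 27.0 and 19.6 to 42.2) and platelet (6.23 to 9.72, 1.80 to 3.91 and 5.67 to 8.83) sums had 3 higher and 1 lower, 0, and 1 higher and 1 lower genes called in OVA vs. Saline after rescaling, and 2, 2 and 1 called lower as deposited. The numbers of genes tested in these lists were 5, 5 and 3.

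Genes outside the lists that followed the mean profile of the members most closely over the 10 rescaled libraries were Tuba1b (r = 0.94), Rpn2 (0.93), Tmed3 (0.92), P4hb (0.92) and Tkt (0.92), out of 3949 gene sums with a mean of at least 5 FPKM. As deposited, Tuba1b, an alpha tubulin, was at 24.4 to 29.4 FPKM in Saline, 7.61 to 14.4 in OVA and 20.1 to 24.3 in Herb. The match itself was taken on rescaled values. In the rescaled profile the groups overlapped, at -0.26 to 0.01 in Saline, -0.48 to 0.39 in OVA and -0.0019 to 0.35 in Herb. The profile rests on gene sums, so that the scatter of the Cdh1, Ocln and F11r rows enters it. It is not a pattern shared by the members, whose rescaled locus sums had a median pairwise r of -0.21.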

How the data were processed

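Lung RNA of 10 mice was sequenced as paired ends. Per the labels and the paper's methods, reads were trimmed by the authors (cutadapt 1.10), aligned to mm10 with HISAT2, and assembled and quantified as transcripts (StringTie 1.3.3b, ballgown); the authors deposited 1 table of FPKM per transcript, without counts. The authors' own comparisons used edgeR and are not used here. The labels and methods name different library kits, so strandedness is uncertain and overlapping antisense transcription cannot be told apart. A value of exactly 0 may be an estimate that failed, so such values are called listed at 0.

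RefSeq rows were summed per symbol. Features with a mean of at least 1 FPKM were tested on log2(FPKM + 1), a scale that understates changes of low genes, with limma 3.58.1 (trend, two-sided) in R 4.3.3, all 10 libraries in 1 fit with 3 group means, instead of a count model. Tests ran over 11205 gene sums, 30194 rows and 11775 locus sums. Gene positions and promoters are from RefSeq (GRCm38.p6), transcript lengths from GENCODE vM21. Depth was estimated from FPKM times length of the lowest values. Alternatives were the pseudocount, filter, scaling, samples in the fit, a replicate block and leaving out each library. On simulated OVA vs. Saline data for 11205 genes with 200 changed, 82% at a log2 change of 2 and 91% at 3 were recovered. Of 178 calls, 5 were false. Recovery at smaller values, such as -1.17 for Cldn3 or -0.85 for Epcam in OVA vs. Saline as deposited, was not tested. Recovery and false calls with as many genes changed as the 6853 gene sums called in that comparison were not tested either. Members and lists were chosen with earlier results of these data known. Named genes are all members, the 3 highest of each junction list and the 5 most alike in profile.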

Additional observations from a re-analysis of the deposited data

Results flagged for a closer look

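Values of 4 Herb libraries were checked for a library far from its fellows in 31 sets, a number that counts repeats. A gene sum with 1 row and a locus sum with no added row hold values already counted and were not checked again. The distinct sets were therefore fewer than 31, and chance marks about 1 in 20 of them. For the Cdh1 locus sum, Herb replicate 2 (27.2 FPKM) stood apart from the others (23.99, 24.03 and 24.5 FPKM), with a gap of 0.839 of the range of the group. For the Shroom2 row NM_001290684, Herb replicate 3 (1.06 FPKM) stood apart from 0, 0.0174 and 0.0984 FPKM, with a gap of 0.907 of the range. The cause of neither was tested.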

How the results depend on the processing

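Of 240 results with 1 library left out, 218 kept direction and side of the threshold, and of 234 results under other alternatives 160 did. The cause of the changes was not tested. Leaving out a library of the group outside a comparison cannot change the log2 value of that comparison in this fit. The same holds for a change of filter and for a fit of the 2 groups only. Part of these results therefore kept their direction by construction. Members called by gene sum numbered 4 in OVA vs. Saline, which became 2 after rescaling to the 75th percentile, 1 with quantile normalization, 8 with locus sums, 2 with rescaled locus sums and 3 to 6 with 1 library left out. For Herb vs. OVA the 4 became 0 under each of the 3 scalings and with rescaled locus sums, and 3 to 5 with 1 library left out. For Herb vs. Saline the 1 became 0 with quantile normalization and rescaled locus sums, 2 with the protein-coding sum (Tjp1 lower, Cldn7 higher) or with the 2 groups only, and 3 with locus sums, and stayed 1 with any library left out.

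Member rows called in OVA vs. Saline (4) became 2, 1 and 2 under the 75th percentile, quantile and protein-coding scalings (under the last 1 lower, NM_001163574 of Tjp1, and 1 higher, NM_016887 of Cldn7), 5 with no filter and 3 to 5 with 1 library left out. Over all 30194 rows the 13331 calls became 7602, 6795 and 9898 under these scalings, the last with 8425 higher and 1473 lower. In Herb vs. OVA the 3 became 1 with no filter, 0 under all 3 scalings, and 0 to 4 with 1 library left out (0 without OVA replicate 1, Herb replicate 1 or Herb replicate 2). Over all rows the 9786 calls became 168, 162 and 266 under the scalings in the same order, and 216 to 9300 with 1 library left out. In Herb vs. Saline the 2 became 1 with a pseudocount of 0.1, no filter or the 75th percentile (each NM_001163574 of Tjp1), 1 with the protein-coding sum, where both Tjp1 rows lost their call and NM_016887 of Cldn7 was called higher (0.61, adjusted p = 0.0424), 0 with quantile normalization and 0 to 2 with 1 library left out. Over all rows the 2443 calls became 1675 (75th percentile), 1011 (quantile) and 4632 (protein-coding sum, 4242 of them higher). With 1 library left out they were 207 to 3014. Over all gene sums, the 6853 calls of OVA vs. Saline became 3180 with a mean of at least 5 FPKM (fewer genes tested), 4004 with quantile normalization and 6143 to 6862 with 1 library left out. The 4982 of Herb vs. OVA became 2722, 90 (75th percentile), 157 (quantile), 621 (protein-coding sum), 118 (rescaled locus sums) and 3225 to 5069. The 2921 of Herb vs. Saline became 1716, 1758 (75th percentile), 841 (quantile), 2385 (protein-coding sum, 2065 of them higher) and 897 (without Saline replicate 2) to 3224.

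Under the 75th percentile, quantile normalization and protein-coding sum, the medians of all gene sums were 0.07, 0.0028 and 0.35 in OVA vs. Saline. In Herb vs. OVA these medians were 0.01, -0.0049 and -0.12, and in Herb vs. Saline 0.09, 0.0047 and 0.23. Log2 values that changed sign are given in the order 75th percentile, quantile normalization, protein-coding sum and rescaled locus sums. In OVA vs. Saline they were 0.19, 0.31, 0.53 and 0.12 for Epcam and 0.53, 0.58, 0.86 and 0.46 for Cldn7. Cldn3 turned to 0.29 (quantile) and 0.28 (protein-coding sum), Ocln to 0.0202 and Shroom2 to 0.24 (protein-coding sum), Cdh1 to 0.10 (rescaled locus sums), and F11r to -1.24 and -0.24 (locus sums as deposited and rescaled). In Herb vs. OVA they were -0.10, -0.17, -0.27 and -0.0811 for Epcam and -0.13, -0.18, -0.30 and -0.11 for Cldn7, with Cldn3 at -0.0679 (quantile) and -0.0799 and Ocln at -0.0525 (protein-coding sum), and F11r at 0.69 and 0.0907 (locus sums). In Herb vs. Saline they were 0.0857, 0.14, 0.26 and 0.0354 for Epcam, 0.40, 0.39, 0.57 and 0.35 for Cldn7 and 0.0107, 0.22 and 0.20 for Cldn3, with Cdh1 at -0.29 and F11r at -0.55 and -0.15 (locus sums). With 1 library left out, signs changed for Ocln in Herb vs. OVA (-0.0875 to 0.9985) and, in Herb vs. Saline, for Ocln (-1.38 to 0.26), Cldn7 (-0.0479 to 0.003), F11r (-0.44 to 1.07) and Shroom2 (-0.30 to 0.25).

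The libraries share replicate numbers, and the labels name no pairing of mice by them. Deviations of libraries with the same number in different groups correlated with r from -0.0087 to 0.0953 in 9 pairs. In the 24 pairs with different numbers r ran from -0.1703 to 0.2269. Such correlations over all genes cannot tell whether the numbers stand for a shared block. With the number as a replicate block, in which Herb replicate 4 has no partner and adds nothing to the contrasts, members called were 4, 3 and 1 in the 3 comparisons, member rows 4, 0 and 0, and all gene sums 6603, 4040 and 1342. In that fit Cdh1 in Herb vs. OVA lost its call (2.68, adjusted p = 0.0975) and F11r turned to -0.29 in Herb vs. Saline. The SE of Ocln in OVA vs. Saline was 0.31 with the block and 0.93 without it (limma adjusted p = 0.0507 against 0.446). The Ocln library near 0 was replicate 3 in each group.

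The depth of about 14700000 to 29500000 fragments was estimated, and FPKM without counts give no counting interval for low members such as Cldn4. With 3 or 4 mice a group, differences within the intervals given were not detectable here.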
